A study of Mus musculus with 6 samples.

Results

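Genes of the peroxisome were followed in whole kidneys of mice that overexpress adiponectin in the renal epithelium. The 47 members were taken by symbol from the 54532 genes of the deposited table. They comprise 13 peroxins, which build the organelle, and 34 matrix enzymes and membrane transporters, which carry out its metabolism. Control mice carried the KsprtTA driver without the adiponectin transgene (their labels say wild type), and KSPAPN mice carried KsprtTA/TRE-Adiponectin. All were male C57BL/6 mice fed chow with doxycycline at 600 mg/kg for 4 days, and the sources used here do not give their ages. KsprtTA places the transgene under a kidney-specific promoter that is active along the nephron epithelium, in the proximal tubule as well as the collecting duct. Each library was a pool of 3 mice, and there were 3 libraries per group, so that every spread given here is a spread between pools. The labels give kidney as the tissue, although the extraction protocol in them mentions liver.

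Peroxisomes are single-membrane organelles that shorten very long-chain and branched fatty acids, break down hydrogen peroxide with catalase and start the synthesis of ether lipids. Their matrix proteins are made in the cytosol and imported by peroxins, which recognise targeting signals, dock at the membrane and recycle the receptors. In the kidney they are abundant in proximal tubule cells, and many of their enzymes are known targets of PPARA, the nuclear receptor for fatty acids.

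The count of reads on genes lay between 17183358 and 20871173 per library. *Adipoq*, the gene of the transgene, had counts of 2, 0 and 2 in the Control libraries and 24629, 17483 and 26811 in the KSPAPN libraries. The labelled tissue was checked against markers. *Slc34a1*, the proximal tubule phosphate transporter, was at a mean of 1212 FPKM in Control and 1085 FPKM in KSPAPN, and *Umod*, of the thick ascending limb, at 678 and 653 FPKM. Of 12 hepatocyte markers, *Alb* was at 2.05 FPKM in Control and 3.04 FPKM in KSPAPN, and *Cps1* and *Tat* had counts of 0 in every Control library, with 1, 14 and 31 for *Cps1* and 0, 3 and 3 for *Tat* in the KSPAPN libraries. The highest of the 12 were *Ttr*, at 114 FPKM in Control and 50.7 FPKM in KSPAPN, and *Apob*, at 10.7 and 10.3 FPKM. FPKM are fragments scaled by gene length and by library size, so that levels can be compared between genes.

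Most of the peroxisomal genes had lower fitted levels in KSPAPN than in Control, and those that passed the test were enzymes, not peroxins. *Abcd2*, a transporter of very long-chain acyl-CoA, stayed under the filter on low counts, with 0.0182, 0.0194 and 0.0287 FPKM in Control and 0.0217, 0.0552 and 0.0730 FPKM in KSPAPN. The other 46 members were tested with edgeR's quasi-likelihood test, with Benjamini-Hochberg adjustment over all 16017 genes that passed the filter. At an adjusted p under 0.05, 7 members fell and 1 rose, against a background of 2.25% of all tested genes that fell and 0.393% that rose. The 7 were *Acaa1b*, *Pecr*, *Amacr*, *Acox2*, *Crot*, *Ech1* and *Mlycd*, and the 1 was *Scp2*. The fitted log2 fold change was below 0 for 39 of the 46 members (35 when libraries were scaled by total counts only), and for 48.1% of all tested genes. The median over the members was -0.25 on the log2 scale, and 0.012 over all tested genes.

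At an unadjusted p under 0.05, 23 members were lower and 3 higher, beside 11.2% and 7.52% of all tested genes. All KSPAPN libraries lay below all Control libraries in 24 members (13.5% of all tested genes) and above them in 2 (10.8%). Among all tested genes with an unadjusted p under 0.05, 40.2% were higher in KSPAPN, and the share was 50.2% once GC content and gene length were corrected for and 62.7% when libraries were scaled by total counts only. The corrected fit called 7 members lower and 1 higher (1.88% and 0.618% of all tested genes). The fit on total counts called 6 lower and 1 higher, beside 1.22% of all tested genes called lower. DESeq2 called 14 lower and 1 higher, beside 5.11% and 1.22% of the genes to which it gave an adjusted p. The number that fell depended on the pools used, as did the share of all tested genes called lower. Without Control replicate 1, Control replicate 2 or KSPAPN replicate 3, *Acaa1b* alone of the members passed the test. The share of all tested genes was then 0.206%, 0.700% and 0.366%. The number was 6 without Control replicate 3, 7 without KSPAPN replicate 2 and 9 without KSPAPN replicate 1. Here the share of all tested genes was 1.64%, 1.47% and 3.47%.

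**Figure D1:**
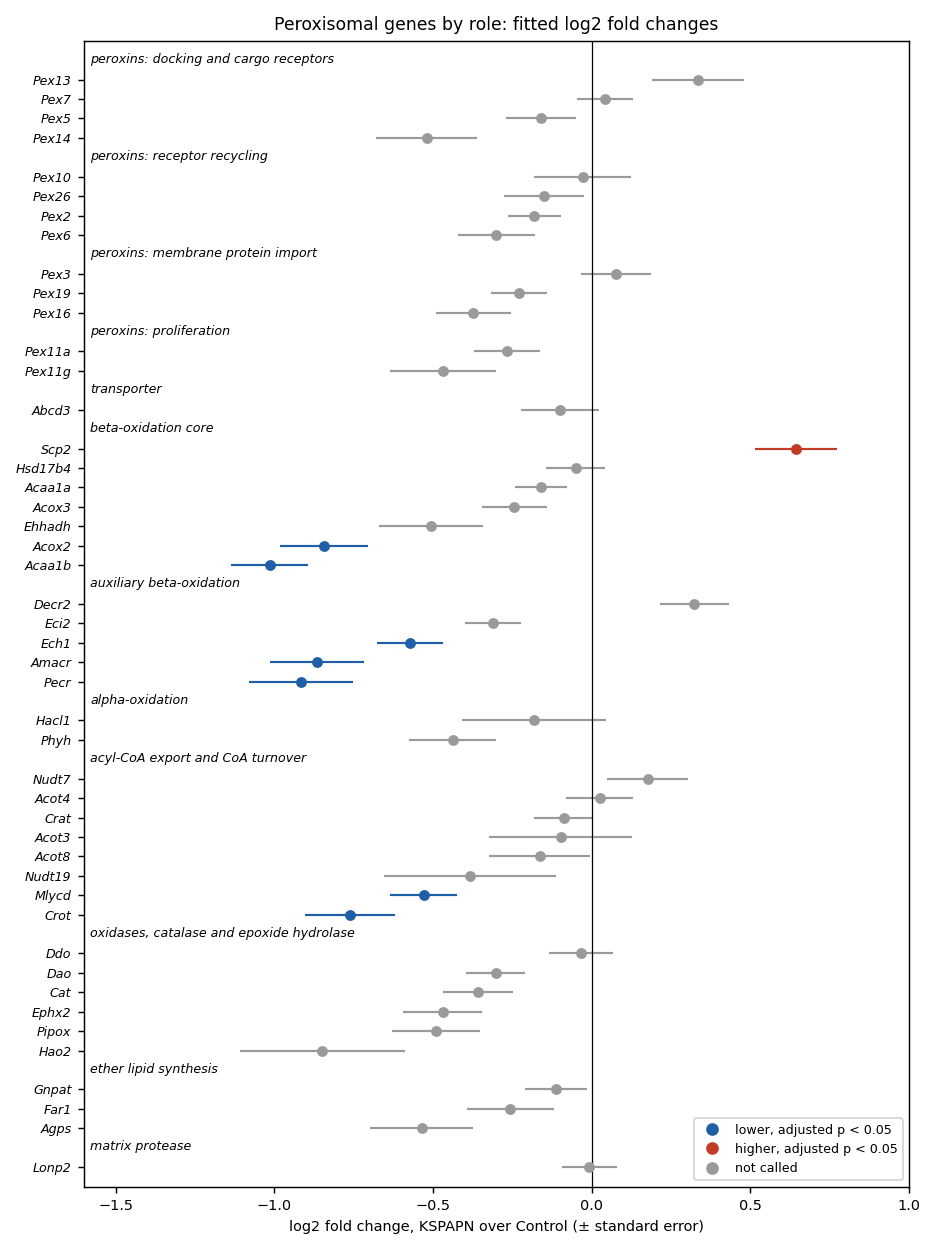
Fitted log2 fold change of KSPAPN over Control (x axis) for each of the 46 tested members (y axis), grouped by role, with points for the estimate and bars for ± 1 standard error. The 7 members that fell are in blue, the 1 that rose is in red, and the grey points were not called.

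The peroxins showed small differences, and 0 of 13 passed edgeR's test at an adjusted p under 0.05. Unadjusted, 6 were lower and 1 was higher at a p under 0.05, beside 11.2% and 7.52% of all tested genes. By DESeq2, 1 was lower at an adjusted p under 0.05. Their fitted log2 fold changes lay between -0.52 and 0.34, with a median of -0.18 and 10 of 13 below 0. In the fit corrected for GC content and length the median was -0.09, with 11 of 13 below 0, beside a median of 0.043 over all tested genes. At an unadjusted p under 0.05 there were 4 lower and 0 higher peroxins in that fit. Of all 16017 tested genes, 1463 were lower and 1474 higher. In 7 of the 13, the groups did not overlap, each lower in KSPAPN, beside 13.5% of all tested genes. Their summed level was 199 ± 6.77 FPKM in Control and 173 ± 3.98 FPKM in KSPAPN (SD, n = 3). The ratio of these means, KSPAPN over Control, was 0.87. For the summed level of all tested genes it was 0.90, which is the background of every summed level given here.

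Among the peroxins for docking and cargo recognition, the docking partners *Pex14* and *Pex13* lay at opposite ends of the family. *Pex14* had 6.38, 4.64 and 5.73 FPKM in Control and 4.64, 3.33 and 3.64 FPKM in KSPAPN, with a log2 fold change of -0.52 (SE 0.16, edgeR adjusted p = 0.116). Its groups did not overlap, although the lowest Control and the highest KSPAPN library were equal at this rounding. *Pex13* had 9.23, 11.7 and 8.81 FPKM in Control and 9.92, 14.2 and 13.2 FPKM in KSPAPN, with a log2 fold change of 0.34 (SE 0.15, edgeR adjusted p = 0.248), and its groups overlapped. *Pex5*, the receptor for the C-terminal targeting signal, and *Pex7*, the receptor for the N-terminal one, bring cargo to this pair. *Pex5* had 28.9, 24.9 and 23.1 FPKM in Control and 23.8, 20.5 and 24.3 FPKM in KSPAPN. The log2 fold changes were -0.16 for *Pex5* and 0.04 for *Pex7*, and the groups of both overlapped. In the corrected fit *Pex13* was at 0.19, *Pex5* at -0.06 and *Pex7* at -0.08. *Pex13* overlaps *Pus10* on the opposite strand, with a count of 38.8% of its own and a log2 fold change of 0.21. *Pex14* overlaps *Gm17029* on the opposite strand, with a count of 10.4% of its own and a log2 fold change of -0.64. Whether counting used strand is not stated.

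*Pex6*, an ATPase that pulls used receptors from the membrane, had 32.9, 29.7 and 30.3 FPKM in Control and 29.2, 21.3 and 24.5 FPKM in KSPAPN. All KSPAPN libraries were below Control, with a log2 fold change of -0.30 (SE 0.12, edgeR adjusted p = 0.216), which was -0.09 (SE 0.08, edgeR adjusted p = 0.604) in the corrected fit. *Pex26*, its membrane anchor, had a log2 fold change of -0.15, and the ubiquitin ligase subunits *Pex2* and *Pex10* had -0.18 and -0.03. In the corrected fit *Pex26* was at -0.09 and *Pex10* at 0.09. *Pex19*, *Pex3* and *Pex16* place proteins in the peroxisomal membrane. *Pex19* had 30.7, 30.7 and 28.9 FPKM in Control and 24.1, 24.8 and 27.8 FPKM in KSPAPN, without overlap and with a log2 fold change of -0.23 (SE 0.09, edgeR adjusted p = 0.198). *Pex16* was at -0.37 (edgeR adjusted p = 0.123) and *Pex3* at 0.08, and in the corrected fit at -0.11 and -0.02. *Pex16* overlaps *Large2* on the opposite strand, whose total count was 90.4% of its own, and it is not stated whether counting used strand.

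*Pex11a* and *Pex11g* elongate and divide peroxisomes. Both were lower in every KSPAPN library than in any Control library, as were 13.5% of all tested genes. *Pex11a* had 19.9, 21.6 and 20.1 FPKM in Control and 14.5, 18.1 and 18.5 FPKM in KSPAPN, with a log2 fold change of -0.27 (SE 0.10, edgeR adjusted p = 0.207). *Pex11g* had a mean of 3.57 FPKM in Control and 2.56 FPKM in KSPAPN, with a log2 fold change of -0.47 (SE 0.17, edgeR adjusted p = 0.168). In the corrected fit *Pex11a* was at -0.18 (edgeR adjusted p = 0.332) and *Pex11g* at -0.37 (edgeR adjusted p = 0.225).

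Of the 33 tested enzymes and transporters, 7 fell and 1 rose, beside 2.25% and 0.393% of all tested genes. A fitted log2 fold change below 0 was found for 29, beside 48.1% of all tested genes. The range was -1.02 to 0.64 and the median -0.30. Their summed level was 3143 ± 301 FPKM in Control and 2523 ± 269 FPKM in KSPAPN (SD, n = 3). This was a ratio of 0.80, beside 0.90 for all tested genes. *Abcd3*, a transporter of branched acyl-CoA and the more abundant of the 2 transporter members, had 54.7, 75.1 and 60.1 FPKM in Control and 53.5, 60.5 and 62.6 FPKM in KSPAPN, with overlapping groups and a log2 fold change of -0.10 (SE 0.12).

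The largest fall among the members was that of *Acaa1b*, a thiolase that carries out the last step of peroxisomal beta-oxidation (ENSMUSG00000010651; chr9:119148023-119157093 on GRCm38, minus strand). It had 119, 160 and 133 FPKM in Control and 66.1, 62.6 and 74.4 FPKM in KSPAPN. Every KSPAPN library was far below every Control library, and the log2 fold change was -1.02 (SE 0.12, edgeR adjusted p = 0.00581). It was the 1 member called in all 6 fits that each left out 1 library. In the corrected fit *Acaa1b* was still called, at -0.81 (SE 0.15, edgeR adjusted p = 0.0273). *Amacr* was then also at -0.81, and *Hao2*, which was not called, at -0.89. The rank of *Acaa1b* as the largest fall therefore holds for the uncorrected fit.

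*Acaa1a*, its paralog on the same chromosome (ENSMUSG00000036138; chr9:119339676-119350299, plus strand), moved less. It had 39.7, 39.6 and 40.5 FPKM in Control and 35.8, 36.7 and 34.4 FPKM in KSPAPN, again without overlap, with a log2 fold change of -0.16 (SE 0.08, edgeR adjusted p = 0.328), which was -0.08 in the corrected fit. The ratio of *Acaa1b* to *Acaa1a* was 3.0, 4.05 and 3.28 in Control and 1.85, 1.71 and 2.16 in KSPAPN. The mean log2 ratio was 1.77 ± 0.22 in Control and 0.92 ± 0.17 in KSPAPN (SD, n = 3), a difference of -0.85. In the two-sided exact permutation test, p was 0.1, the smallest that 20 arrangements allow. The paralogs share sequence: 22.6% of the 100-base stretches of *Acaa1b* and 9.75% of those of *Acaa1a* also occur in another gene, so that some of their reads could have been counted on the wrong copy. *Acaa1b* also overlaps *Dlec1* on the opposite strand, with a count of 42.0% of its own and a log2 fold change of -0.17.

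The 250 bases before the RefSeq start of each thiolase gene are shown because the paralogs had unequal fold changes. The RefSeq start of *Acaa1a* lies inside the GENCODE bounds given above, so that its window does too. They are sequences on GRCm38.p6, at chr9:119157094-119157343 (minus strand) for *Acaa1b* and chr9:119341044-119341293 (plus strand) for *Acaa1a*, with CCAAT boxes of either strand (CCAAT or ATTGG) in capitals.
Acaa1b: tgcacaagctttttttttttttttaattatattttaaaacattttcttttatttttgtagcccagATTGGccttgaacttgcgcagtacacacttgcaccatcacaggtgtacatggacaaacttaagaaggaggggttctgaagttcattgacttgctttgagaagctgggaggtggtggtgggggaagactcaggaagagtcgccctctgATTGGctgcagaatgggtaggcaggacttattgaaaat
Acaa1a: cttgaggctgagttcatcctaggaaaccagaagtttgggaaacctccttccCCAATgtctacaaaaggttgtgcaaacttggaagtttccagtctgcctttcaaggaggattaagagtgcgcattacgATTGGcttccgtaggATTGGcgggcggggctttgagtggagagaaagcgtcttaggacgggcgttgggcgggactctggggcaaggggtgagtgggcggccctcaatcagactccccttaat
The window held 2 boxes for *Acaa1b* and 3 for *Acaa1a*. Promoters were matched for 40 of the 47 members, and 50% of these held a box in 250 bases, beside 37.5% of all 27025 genes in the promoter table. Of the latter 11542 were tested here, and the share among them was not computed. A match is a description of the letters alone.

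*Acox2*, the oxidase for branched fatty acids and bile acid intermediates, fell together with *Acaa1b*. This gene (ENSMUSG00000021751; chr14:8225511-8259353, minus strand) had 34.4, 32.7 and 31.4 FPKM in Control and 14.1, 22.2 and 18.6 FPKM in KSPAPN. The groups lay well apart, and the log2 fold change was -0.84 (SE 0.14, edgeR adjusted p = 0.0163). *Acox3*, a related oxidase, was at 31.4 ± 2.76 FPKM in Control and 26.4 ± 2.33 FPKM in KSPAPN (SD, n = 3), with a log2 fold change of -0.24 (SE 0.10, edgeR adjusted p = 0.233).

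Among the enzymes of the middle steps, *Ehhadh* had a larger fitted difference than *Hsd17b4*. *Ehhadh*, the bifunctional enzyme for straight chains, had 206, 311 and 220 FPKM in Control and 143, 181 and 194 FPKM in KSPAPN, without overlap and with a log2 fold change of -0.51 (SE 0.16, edgeR adjusted p = 0.131). *Hsd17b4*, the bifunctional enzyme that also takes branched chains, had 71.0, 79.6 and 67.5 FPKM in Control and 72.3, 70.5 and 66.9 FPKM in KSPAPN, with overlapping groups and a log2 fold change of -0.05 (SE 0.09), and 0.01 in the corrected fit.

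*Scp2*, which encodes a thiolase for branched chains and sterol carrier protein, was the 1 member that rose (ENSMUSG00000028603; chr4:108043839-108144998, minus strand). It had 281, 384 and 345 FPKM in Control and 512, 570 and 490 FPKM in KSPAPN. All KSPAPN libraries were above Control, with a log2 fold change of 0.64 (SE 0.13, edgeR adjusted p = 0.0311). It was called in 1 of the 6 fits that each left out 1 library. Counts per gene do not tell transcripts for the thiolase from those for sterol carrier protein alone, so which of them rose was not tested. Of its 100-base stretches, 32.2% also occur in another gene, mostly the pseudogene *Scp2-ps2*. Because *Scp2* was the most abundant member of the beta-oxidation core, the summed level of its 7 genes was 897 ± 132 FPKM in Control and 914 ± 52.5 FPKM in KSPAPN (SD, n = 3), although 6 of the 7 had fitted values below 0.

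The members grouped here as auxiliary enzymes, which act on double bonds or methyl branches of acyl-CoA, held 3 of the 7 members that fell. The grouping is by role name, and the route that each enzyme serves was not tested. Their summed level over 5 genes was 560, 641 and 495 FPKM in Control and 293, 373 and 359 FPKM in KSPAPN. No KSPAPN pool reached the Control range. *Pecr*, which reduces trans-enoyl-CoA (ENSMUSG00000026189; chr1:72259167-72284314, minus strand), had 267, 314 and 221 FPKM in Control and 108, 166 and 150 FPKM in KSPAPN, with a log2 fold change of -0.92 (SE 0.16, edgeR adjusted p = 0.0220). *Amacr*, the racemase that turns branched acyl-CoA into the form *Acox2* can oxidise (ENSMUSG00000022244; chr15:10981756-10996626, plus strand), had 148, 149 and 108 FPKM in Control and 61.2, 85.6 and 74.7 FPKM in KSPAPN. Its log2 fold change was -0.87 (SE 0.15, edgeR adjusted p = 0.0180). Neither gene overlapped between groups, and in both the lowest library was KSPAPN replicate 1.

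*Ech1*, a dienoyl-CoA isomerase (ENSMUSG00000053898; chr7:28825217-28832247, plus strand), had 106, 128 and 121 FPKM in Control and 76.7, 74.8 and 86.7 FPKM in KSPAPN. It fell by a smaller amount, with a log2 fold change of -0.57 (SE 0.10, edgeR adjusted p = 0.0226), and was called in 1 of the 6 fits without a library. In the fit corrected for GC content and length it was not called, at -0.38 (SE 0.11, edgeR adjusted p = 0.107). *Decr2*, a reductase of the same group, lay the other way, at 22.1, 29.4 and 25.4 FPKM in Control and 32.3, 31.9 and 31.6 FPKM in KSPAPN. Its groups did not overlap and its log2 fold change was 0.32 (SE 0.11, edgeR adjusted p = 0.148). *Eci2*, an enoyl-CoA isomerase, had a log2 fold change of -0.31 (SE 0.09, edgeR adjusted p = 0.0979).

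**Figure D2:**
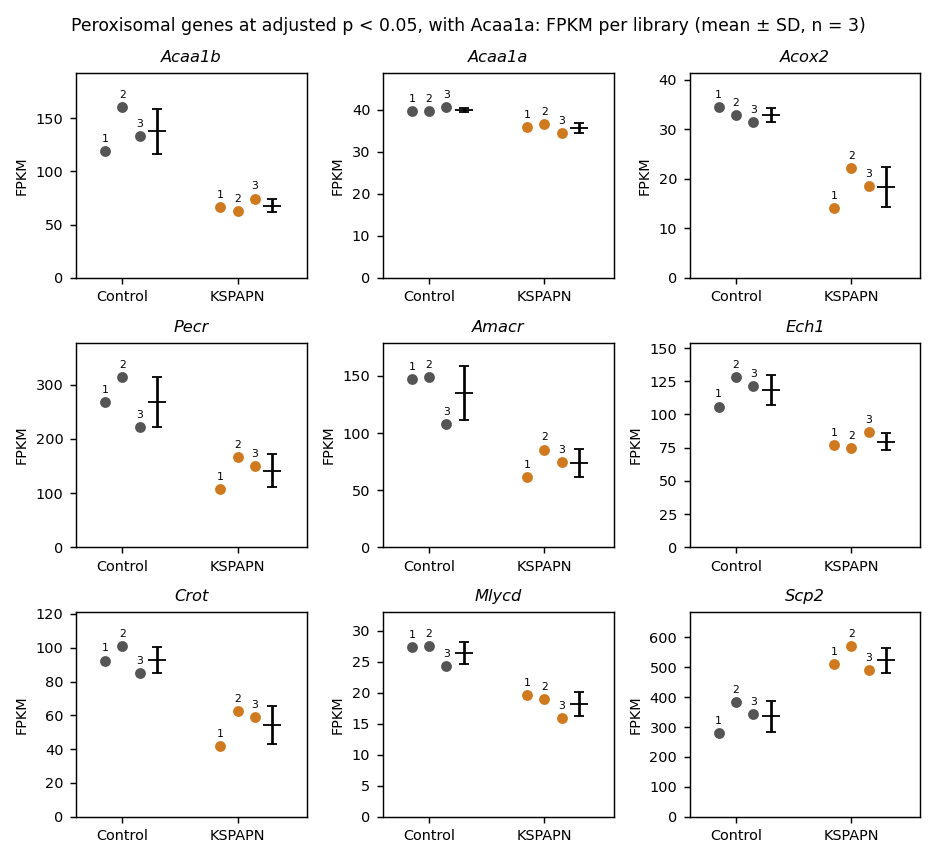
FPKM in each library (y axis, starting at 0) of the 8 members that passed edgeR's test and of *Acaa1a*, with numbered points for replicates 1 to 3 of Control (grey) and KSPAPN (orange) and black bars for the mean ± SD (n = 3). The groups are apart in every panel, and *Scp2* is the panel in which KSPAPN is the higher group.

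Export of shortened fatty acids from the peroxisome was represented by *Crot*, the carnitine octanoyltransferase (ENSMUSG00000003623; chr5:8966033-8997324, minus strand). It had 92.4, 101 and 85.1 FPKM in Control and 41.7, 62.7 and 59.1 FPKM in KSPAPN, without overlap, and fell with a log2 fold change of -0.76 (SE 0.14, edgeR adjusted p = 0.0248). *Crat*, the carnitine acetyltransferase that peroxisomes share with mitochondria, had 32.6, 31.5 and 35.2 FPKM in Control and 33.1, 29.6 and 30.3 FPKM in KSPAPN, with overlapping groups and a log2 fold change of -0.09 (SE 0.09), and -0.03 in the corrected fit. *Mlycd*, which breaks down malonyl-CoA in peroxisomes, mitochondria and cytosol (ENSMUSG00000074064; chr8:119394878-119411102, plus strand), had 27.4, 27.5 and 24.3 FPKM in Control and 19.6, 19.1 and 15.9 FPKM in KSPAPN. It fell with a log2 fold change of -0.53 (SE 0.11, edgeR adjusted p = 0.0299), and was not called in the corrected fit, at -0.38 (SE 0.10, edgeR adjusted p = 0.0871).

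The thioesterases and CoA hydrolases, which release or break down CoA, did not pass the test. *Nudt19* had 153, 124 and 158 FPKM in Control and 56.1, 144 and 134 FPKM in KSPAPN. Its lowest value was that of KSPAPN replicate 1 alone, the other two KSPAPN pools lay within the Control range, and the log2 fold change was -0.38 (SE 0.27, edgeR adjusted p = 0.486), and -0.24 in the corrected fit. *Nudt7* was at 0.18, and the thioesterases *Acot3*, *Acot4* and *Acot8* were at -0.10, 0.02 and -0.16 on the log2 scale. In the corrected fit *Acot4* was at -0.06 and *Acot8* at 0.02.

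In alpha-oxidation, which removes 1 carbon from phytanic acid, *Phyh*, the hydroxylase of its first step, had 252, 312 and 247 FPKM in Control and 161, 227 and 209 FPKM in KSPAPN. All KSPAPN libraries were below Control, and the log2 fold change was -0.44 (SE 0.14, edgeR adjusted p = 0.123). *Hacl1*, the lyase of the same route, had a mean of 1.01 FPKM in Control and 0.89 FPKM in KSPAPN, and 47.8% of its 100-base stretches also occur in another gene.

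The oxidases, catalase and epoxide hydrolase all had fitted values below 0, beside 48.1% of all tested genes. Of the 6, 5 were lower at an unadjusted p under 0.05, beside 11.2% of all tested genes. After adjustment over all genes 0 passed edgeR's test, beside 2.25% called lower. By DESeq2, 3 of the 6 (*Cat*, *Pipox* and *Ephx2*) were lower at an adjusted p under 0.05, beside 5.11% of the genes to which it gave an adjusted p. *Cat*, the catalase gene, had 328, 349 and 293 FPKM in Control and 221, 275 and 259 FPKM in KSPAPN, without overlap and with a log2 fold change of -0.36 (SE 0.11, edgeR adjusted p = 0.120). *Ephx2*, the soluble epoxide hydrolase, had a log2 fold change of -0.47 (SE 0.12, edgeR adjusted p = 0.0796), and *Pipox*, the pipecolic acid and sarcosine oxidase, -0.49 (SE 0.14, edgeR adjusted p = 0.0923). *Hao2*, a hydroxy acid oxidase, spread most, with 139, 104 and 68.0 FPKM in Control and 44.5, 80.2 and 47.5 FPKM in KSPAPN. Its groups overlapped, and the log2 fold change was -0.85 (SE 0.26, edgeR adjusted p = 0.116). *Dao*, the D-amino acid oxidase, was at -0.30 and *Ddo*, the D-aspartate oxidase, at -0.03, and in the corrected fit at -0.15 and -0.07.

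Of the enzymes that start ether lipid synthesis, *Agps* had 33.9, 47.2 and 36.2 FPKM in Control and 20.6, 29.1 and 30.9 FPKM in KSPAPN. The groups did not overlap, and the log2 fold change was -0.54 (SE 0.16, edgeR adjusted p = 0.113). *Gnpat*, the acyltransferase before it, and *Far1*, the reductase that supplies fatty alcohol, were at -0.11 and -0.26. In the corrected fit *Gnpat* was at -0.05 and *Far1* at -0.46, and *Far1* and *Agps* were then called lower (edgeR adjusted p = 0.0419 and 0.0221). *Lonp2*, the protease of the matrix, had 24.2, 27.3 and 25.6 FPKM in Control and 24.9, 25.8 and 25.7 FPKM in KSPAPN, with a log2 fold change of -0.01 (SE 0.09), and -0.06 in the corrected fit.

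The rank of the libraries was uneven over the members. KSPAPN replicate 1 was the lowest of the 6 libraries in 23 of 46 members (50%), beside 20.1% of all tested genes. Among the enzymes and transporters it was lowest in 20 of 33 (60.6%), and among the peroxins in 3 of 13. Control replicate 2 was the highest of the 6 in 21 of 46 members (45.7%), beside 16.7% of all tested genes.

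**Figure D3:**
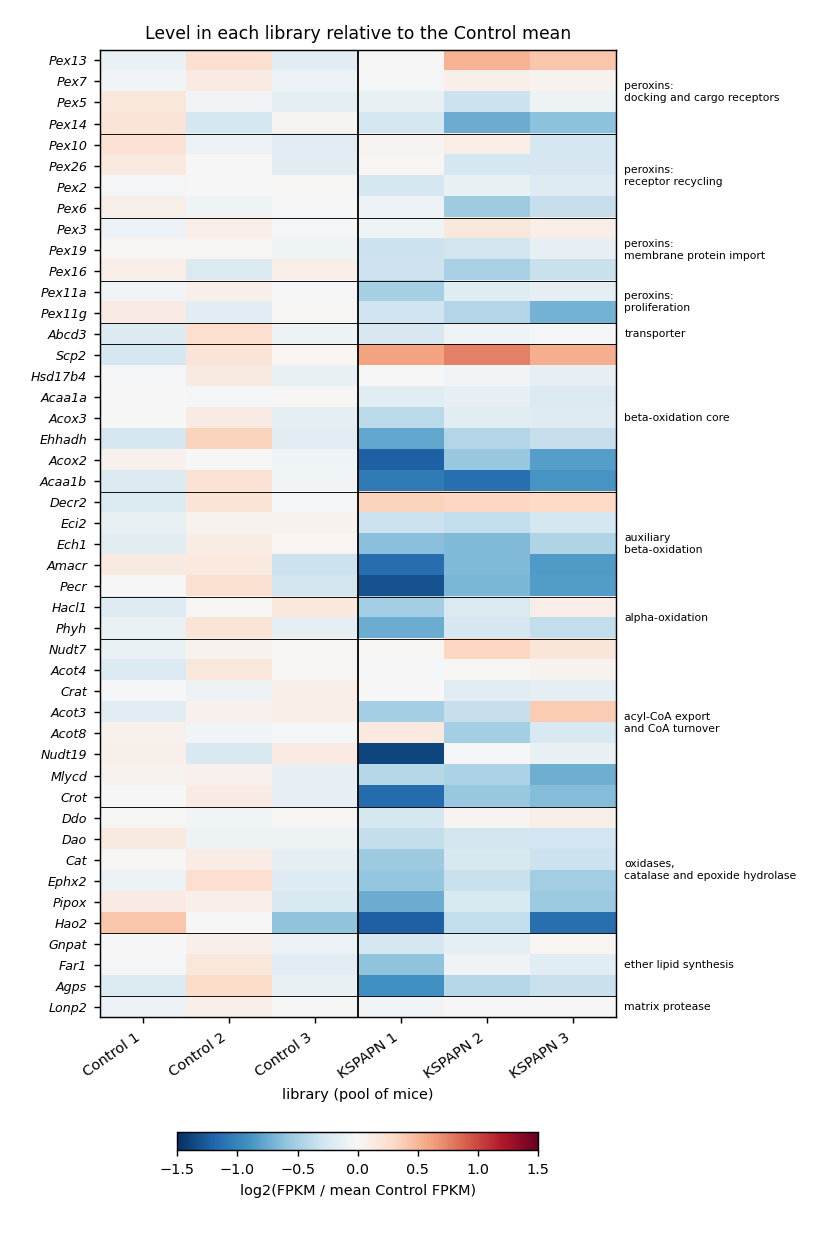
Level of each tested member (rows, grouped by role) in each library (columns, 3 Control and 3 KSPAPN pools), as the log2 ratio of its FPKM to the mean of the Control libraries, on a colour scale from blue (lower) to red (higher). Blue prevails in the 3 KSPAPN columns among the enzymes and is deepest in KSPAPN replicate 1, and *Scp2* and *Decr2* are red in all 3.

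PPARA itself and its other targets were read beside the members. *Ppara* had a mean of 10.2 ± 0.24 FPKM in Control and 7.98 ± 0.26 FPKM in KSPAPN (SD, n = 3), with a log2 fold change of -0.35 (SE 0.09, edgeR adjusted p = 0.0780). Of 14 tested PPARA targets that act outside the peroxisome, 3 fell, 0 rose, and all 14 had fitted values below 0 (11 when scaled by total counts only), with a median of -0.17. The 3 were *Cyp4a14* and *Cyp4a10*, which hydroxylate fatty acids at their end, and *Acadm*, the mitochondrial medium-chain dehydrogenase. *Cyp4a14* had 11, 25.1 and 9.98 FPKM in Control and 2.62, 2.36 and 2.75 FPKM in KSPAPN, with a log2 fold change of -2.56 (SE 0.32, edgeR adjusted p = 0.00613). *Cyp4a10* was at -0.73 and *Acadm* at -0.72. For this list and those below, the background was 2.25% of all tested genes that fell, 0.393% that rose and 48.1% below 0. Of 8 genes for PPAR receptors, partners and coactivators, 0 passed edgeR's test, 4 had an unadjusted p under 0.05, and DESeq2 also called 0.

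The binding element of PPARA with RXR is a direct repeat of AGGTCA with 1 base between, known as DR1. Searched on both strands of the window from 250 bases before to 50 after each RefSeq gene start with up to 2 mismatches, it was found in 3 of 40 members (7.50%), beside 3.73% of 11542 tested genes with a promoter. The 3 matches are shown because *Acox2* fell while *Cat* and *Acot4* were not called. They are written in the direction of the gene (RefSeq, GRCm38.p6), with the matched bases in capitals, at chr14:8258810-8258838 for *Acox2*, chr2:103485337-103485365 for *Cat* and chr12:84038358-84038386 for *Acot4*.
Acox2: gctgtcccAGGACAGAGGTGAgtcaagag
Cat: actctcagAGGTCAGAGAACAccagcagg
Acot4: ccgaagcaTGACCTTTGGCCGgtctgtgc
*Acox2* has more than 1 RefSeq start, and its match lies at one that is inside the GENCODE bounds given above. The promoters of *Acaa1b*, *Pecr*, *Crot*, *Ech1* and *Mlycd* held no such match in this window, which says nothing of the factor.

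Other genes of the organelle were set beside the members. Of 30 peroxisomal genes outside the 47, 26 were tested, 2 fell and 0 rose. Their median log2 fold change was 0.007, with 13 below 0 and 13 above. *Tysnd1*, the protease that trims matrix enzymes, was at 33.4 ± 1.6 FPKM in Control and 19.1 ± 2.28 FPKM in KSPAPN (SD, n = 3), with a log2 fold change of -0.80 (SE 0.11, edgeR adjusted p = 0.00741). *Prdx5*, a peroxiredoxin, was at -0.57 (SE 0.10, edgeR adjusted p = 0.0226). Of the 17 enzymes of mitochondrial beta-oxidation, 2 fell (*Acadm* and *Echs1*), all 17 had fitted values below 0 (13 when scaled by total counts only), and the median was -0.20. *Acadm*, *Acadl*, *Hadha*, *Hadhb*, *Cpt1a*, *Cpt2* and *Slc25a20* are also in the list of PPARA targets above, so the lists are not independent.

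Markers of the proximal tubule, where peroxisomes are abundant, were set beside the members. Of 12 markers, 3 fell (*Slc22a7*, *Slc7a13* and *Slc22a6*), 11 had fitted values below 0 and the median was -0.26. Their summed level was 2642 to 3110 FPKM in Control and 2218 to 2323 FPKM in KSPAPN, a ratio of means of 0.78, beside 0.90 for all tested genes. *Slc22a7* and *Slc7a13*, transporters of the last segment of the proximal tubule, were at -1.68 and -1.46. *Slc34a1*, *Slc5a2* and *Slc5a12*, of its earlier segments, were at -0.15, -0.25 and 0.10. Of 6 markers of the thick ascending limb, *Slc12a1* rose, 4 had fitted values above 0 and the median was 0.13. *Cldn10* lay the other way, at -0.41 (edgeR adjusted p = 0.0881), and DESeq2 called it lower. Of 12 markers of the distal tubule and collecting duct 0 passed edgeR's test (4 had an unadjusted p under 0.05, and DESeq2 called 1), with a median of 0.089. The medians were 0.32 over 6 podocyte markers and 0.11 over 5 endothelial markers. In whole kidney, fewer cells of a type and less RNA per cell cannot be told apart, and the part of these markers in the values of the peroxisomal genes was not tested.

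Genes that depend on androgen in the male kidney were read in the same way. All 8 had fitted values below 0 (7 when scaled by total counts only), with a median of -0.45, and 2 fell, *Cyp7b1* at -2.10 and *Cyp2e1* at -0.82. The summed level of the 8 genes was 23363 to 35484 FPKM in Control and 16488 to 27571 FPKM in KSPAPN, so that the groups overlapped. Of 7 tested hepatocyte markers 1 fell, *Ttr*, and the summed level of the 12 listed was 91.3 to 176 FPKM in Control and 64.4 to 98.7 FPKM in KSPAPN. Of the 4 tested leukocyte markers, 0 passed by edgeR, DESeq2 or an unadjusted p under 0.05, and likewise 0 of 4 tested tubular injury genes and 0 of 2 tested adipocyte markers. The part of these genes in the values of the peroxisomal genes was not tested.

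**Figure D4:**
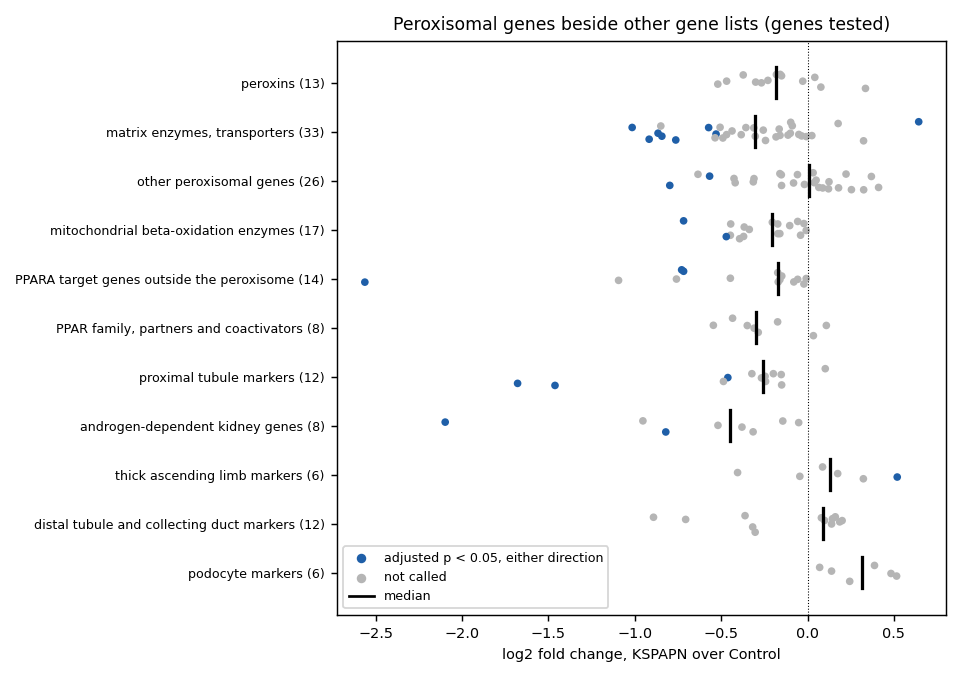
Fitted log2 fold change of KSPAPN over Control (x axis) of every tested gene in the peroxin and enzyme groups and in the lists set beside them (y axis, number of genes in brackets), with a black bar at each list's median and blue points for genes at an adjusted p under 0.05 in either direction. The medians of the peroxins (-0.18) and the enzymes (-0.30) lie left of 0, that of other peroxisomal genes at 0.007, and that of podocyte markers at 0.32.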

How the data were processed

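RNA from whole kidneys was sequenced in 6 libraries, 3 per group, each grouped by its label. The authors deposited raw read counts per gene, without normalization, and FPKM computed by them. The submitters' processing notes name STAR 2.5, TopHat, HTSeq 0.6.1, DESeq2 and edgeR, with no role or order. Which genome build, annotation and strand setting were used was not stated in them or in the study's methods. Symbols and coordinates came from GENCODE M21 (GRCm38), in which 54495 of 54532 identifiers were matched.

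Counts were tested with edgeR 4.0.16 (R 4.3.3), with TMM factors, the low-count filter of filterByExpr (a count of 10 and a total of 15 at least), the two-sided quasi-likelihood test, and p-values adjusted by Benjamini-Hochberg across every tested gene. The standard error is the log2 fold change divided by the square root of F. Two-sided exact permutation tests were used for single ratios. FPKM show levels only. Alternatives were DESeq2 1.42.0, other scalings, no filter, limma 3.58.1 on log2 FPKM with pseudocounts of 1 and 0.1, a correction for GC content and length (natural splines with 5 degrees of freedom), the replicate number as a block, and each library left out in turn. The methods were tested on simulated counts with 200 changed genes. Of these genes, edgeR recovered 79.5% and DESeq2 82.5% at an adjusted p under 0.05. False calls made up 8.09% of edgeR's calls and 15.4% of those of DESeq2. These counts were simulated without a trend in GC content. When such a trend was added to the KSPAPN libraries, false calls made up 61.0% of edgeR's calls, and 7.53% with the correction for GC content and length. Tables and plots were made in Python 3.11.15 (pandas 2.3.3, matplotlib 3.10.9).

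The members and the lists were chosen with earlier results of these data known. Values in every library were to be given for members at an adjusted p under 0.05, for the most abundant member of each role and for *Acaa1a* and *Acaa1b*, and non-members named only for *Adipoq*, the PPAR family and called genes among the other peroxisomal ones. Other members with values in every library (*Pex13*, *Pex14*, *Hsd17b4*, *Ehhadh*, *Decr2*, *Crat*, *Hao2*, *Abcd2*) and other named non-members were chosen after their values were seen. Sequences shared between genes were searched as stretches of 100 bases in GENCODE transcripts. Reads carry no molecular identifiers, and p-values measure the spread between pools. Raw reads and the protein sequences of the members were not analysed here.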

Additional observations from a re-analysis of the deposited data

How the results depend on the processing

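Of the members, 14 were lower by DESeq2 (beside 5.11% of the genes with an adjusted p from it). Without the filter on low counts 16 were lower, beside 3.53% of the genes of that fit. By limma 1 was lower and 0 were higher on log2(FPKM + 1) and on log2(FPKM + 0.1). Beside it, 0.737% and 0.681% of all tested genes were called lower. Leaving out 1 library gave 1 to 9 lower and 0 to 1 higher, where 0.206% to 3.47% of all tested genes were called lower. The median log2 fold change of the peroxins was -0.089 after the correction for GC content and length, which called 6 of the same 8 members, without *Ech1* and *Mlycd* and with *Agps* and *Far1*. The cause of these shifts was not tested. For the 19 members that the naming rule gave by library, 159 of 190 values kept direction and side of the threshold under the other alternatives, 18 lost the call, 12 gained it and 1 changed direction, that of *Lonp2* with total counts only (0.063). With 1 library left out, 84 of 114 were kept, 26 lost the call, 1 gained it and 3 changed direction. These were *Abcd3* without Control replicate 2 (0.041) and *Lonp2* without Control replicate 2 (0.039) and without KSPAPN replicate 1 (0.019), with ranges over these 6 fits of -0.197 to 0.041 for *Abcd3* and -0.052 to 0.039 for *Lonp2*, neither of which was called in a fit that changed its direction.

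The groups share replicate numbers, but same-numbered libraries deviated together with correlations of 0.054, 0.154 and 0.173, so the numbers were not taken as pairs, although every library correlated best with its own number. With the replicate number as a block, 13 members were lower and 1 higher, beside 4.40% of all tested genes called lower. With the block and the GC and length correction 13 were lower and 2 higher, beside 3.07% of all tested genes called lower. The median of the peroxins was then -0.089.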
